A study of Mus musculus with 24 samples.

Results

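Transcripts of 7 genes of NAD metabolism, namely Nampt, Nmrk2, Nmnat1, Nmnat3, Sirt1, Sirt3 and Nnt, were followed in the gastrocnemius muscle of mice fed 3 versions of an obesogenic diet. On the arrays used, 13 of the 41174 different probes carried the symbol of one of these genes, that is 7 of 21375 symbols, and 12 of these probes were bright enough to be compared. The members were chosen by results of these same arrays. Nmrk2 was selected on its difference between cHF+F and cHF mice, and Nampt on its difference between cHF+ROSI and cHF mice. Both differences are therefore given below as descriptions without a test. The other 5 genes are enzymes that make or consume NAD or, in the case of Nnt, oxidise NADH.

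NAD carries electrons in energy metabolism and is also consumed as a substrate, so that cells make it continuously. Nampt, the rate-limiting enzyme of the salvage route, joins nicotinamide to a ribose phosphate, and Nmrk2, a kinase typical of striated muscle, makes the same mononucleotide from nicotinamide riboside. The Nmnat enzymes, nuclear Nmnat1 and mitochondrial Nmnat3 among them, complete NAD, the sirtuins Sirt1 and Sirt3 split it while removing acyl groups from proteins, and Nnt uses the proton gradient of mitochondria to pass electrons from NADH to NADP.

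All animals were male C57BL/6N mice that entered the study at 3 months of age and were killed after 8 weeks of diet, having been fasted for 10 h and then given low-fat Chow overnight. The 8 cHF mice received a high-fat diet with about 35% lipids, the 8 cHF+F mice the same diet with 15% of its lipids exchanged for a concentrate of n-3 LC-PUFA that held 46% of DHA and 14% of EPA, and the 8 cHF+ROSI mice the same diet with rosiglitazone, an agonist of the nuclear receptor PPARγ, at 10 mg per kg. Each mouse was labelled in Cy5 and hybridised on its own array against a Cy3 pool of all samples, to which animals on a higher dose of the drug, not analysed here, had also contributed. Values are the log2 ratio of Cy5 over Cy3, so that 0 is the level of the pool. Every one of the 8 slides held 1 array per diet, always at the same place, so that diet and place on the slide cannot be told apart, whereas differences between slides do not separate the diets.

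The tissue was checked against its markers. All 6 genes of a muscle fibre list (such as Ckm and Acta1) were well above background on all 24 arrays in Cy5, at 1784 to 6069 times the background. The share of all spots well above background in Cy5 was 30.4% to 61.3% on 23 arrays and 91.1% on the array of cHF+ROSI mouse 4. Its lowest value, 30.4%, was that of cHF mouse 3 on slide 3. In every group the share of these spots was lower on slides 1 to 3 than on slides 4 to 8, and values on slides 4 to 8 are therefore given separately where they matter. In muscle as a bulk tissue, fewer cells of a type and less RNA per cell cannot be told apart.

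The promoters of Nampt and Nmrk2 are shown because most of the values below concern these 2 genes. Both are RefSeq promoters on GRCm38.p6 that reach from 250 bases before the start to 50 bases after it, Nampt at chr12:32820085-32820384 on the plus strand and Nmrk2 at chr10:81201988-81202287 on the minus strand. Capitals mark a TATA box (TATAAA).
Nampt: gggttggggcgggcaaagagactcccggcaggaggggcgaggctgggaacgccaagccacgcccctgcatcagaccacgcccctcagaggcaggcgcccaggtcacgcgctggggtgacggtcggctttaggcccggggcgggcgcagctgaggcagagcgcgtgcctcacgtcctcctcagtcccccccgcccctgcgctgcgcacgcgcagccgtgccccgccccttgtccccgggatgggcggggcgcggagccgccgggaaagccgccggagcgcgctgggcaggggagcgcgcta
Nmrk2: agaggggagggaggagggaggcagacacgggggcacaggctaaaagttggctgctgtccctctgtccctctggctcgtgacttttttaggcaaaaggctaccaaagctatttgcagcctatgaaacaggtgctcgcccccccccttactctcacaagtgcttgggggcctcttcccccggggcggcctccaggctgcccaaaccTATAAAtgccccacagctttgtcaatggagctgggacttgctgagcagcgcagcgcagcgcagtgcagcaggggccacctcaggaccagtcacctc
The Nampt region was 76.3% G and C with 36 CpG pairs, against medians of 52.7% and 7 over all 32851 promoters of the same length, and that of Nmrk2 was 60.7% G and C with 8 pairs. The letters searched for, on both strands and none overlapping another in these windows, were the E-box CACGTG, GGTCANAGG (the core of the element bound by PPAR with RXR), TGATGCAAT and TGATGAAAC (ATF4 elements), TCAAGGTCA (an ERR element) and, added after the sequences were seen, the TATA box. Of 8 promoters found for 6 of the 7 genes, that of Nmrk2 held the TATA box, which 13.6% of all promoters hold on either strand, and that of Sirt1 held the E-box at 2 positions, a motif present in 7.15% of all promoters. None of the 8 held the other 4 motifs, which occur in 1.72%, 0.192%, 0.247% and 0.423% of all promoters, and this says only that these letters are not in these windows.

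Nmrk2, measured by 1 probe (mm8, chr10:80602417-80602476), was higher in the cHF+F mice than in both other groups. In the cHF mice its log2 ratio was -1.29 at the lowest, -0.55 at the median and -0.055 at the highest. In the cHF+F mice the corresponding values were -0.57, 0.42 and 0.71, and in the cHF+ROSI mice -1.39, -0.42 and -0.10. Thus 5 of the 8 cHF+F mice lay above every cHF mouse and every cHF+ROSI mouse, while the other 3 (-0.24, -0.40 and -0.57) lay among the mice of the other groups. Group means (SD, n = 8) were -0.63 ± 0.44 for cHF, 0.18 ± 0.50 for cHF+F and -0.53 ± 0.42 for cHF+ROSI.

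**Figure D1:**
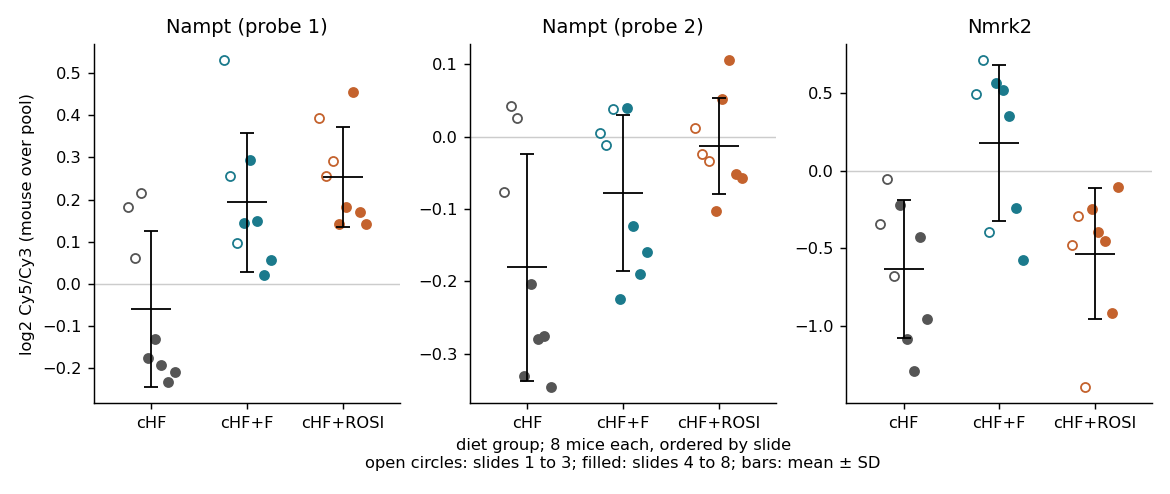
Log2 ratio of Cy5 over Cy3 for both probes of Nampt and the probe of Nmrk2, 1 circle per mouse, in the 3 diet groups (open circles, slides 1 to 3; filled circles, slides 4 to 8; bars, mean ± SD, n = 8). Filled circles of Nampt probe 1 lie at or below -0.13 in the cHF mice and at or above 0.022 in both other groups, while 5 of 8 cHF+F mice stand above all others for Nmrk2.

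The difference of Nmrk2 between the cHF+F and the cHF mice, which chose the gene, was 0.81 (SE 0.21; 95% confidence interval 0.39 to 1.24), a 1.75-fold level. Compared within slides, the cHF+F mouse was the higher one on all 8 slides, by 0.19 to 1.64 with a median of 0.77. All 8 differences of one sign were met in 3.72% of the 15958 probes compared. Since the value chose the gene, nothing is read from that share. On slides 4 to 8 alone the difference was 0.92.

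With rosiglitazone no difference of Nmrk2 from the cHF mice was detectable, given the spread. The value was 0.097 (95% confidence interval -0.33 to 0.52; limma adjusted p 0.996), with the cHF+ROSI mouse higher on 3 of 8 slides. The interval does not exclude differences of up to 0.52, and on slides 4 to 8 the value was 0.37 (limma adjusted p 0.661). The cHF+F mice exceeded the cHF+ROSI mice directly by 0.71 (SE 0.21; 95% confidence interval 0.29 to 1.14; 1.64-fold) and on 7 of 8 slides, by 0.68 to 1.00, with slide 8 at -0.47. That comparison shares the cHF+F arrays with the one that chose Nmrk2. It had a limma unadjusted p of 0.00192, but the limma adjusted p over all probes was 0.486, and 0.124 with the slide as a block.

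Nmrk2 also varied more among mice of 1 diet than most transcripts. Its SD within groups was 0.46 on the log2 scale, against a median of 0.15 over all probes, and 98.4% of probes had a smaller one. By comparison, probe 1 of Nampt had an SD of 0.16, which 60.4% of probes stayed under.

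Nampt was measured by 2 probes on mm8, the brighter probe 1 at chr12:33435857-33435916 and probe 2 at chr12:33424447-33424506. With probe 1, the lowest, median and highest cHF mice were at -0.23, -0.15 and 0.22. The cHF+F mice were at 0.022, 0.15 and 0.53, and the cHF+ROSI mice at 0.14, 0.22 and 0.46. All mice of both supplemented groups lay above the cHF mean of -0.060 ± 0.18, but the groups overlapped, since 3 cHF mice, those of slides 1 to 3, reached 0.061 to 0.22. On slides 4 to 8 the 5 cHF mice lay between -0.23 and -0.13, the 5 cHF+F mice between 0.022 and 0.29, and the 5 cHF+ROSI mice between 0.14 and 0.46, without overlap between the cHF and either other group. On those slides 1.89% of all probes did not overlap between the cHF+F and the cHF mice and 1.58% between the cHF+ROSI and the cHF mice. These slides were singled out after the values had been seen, and the cHF arrays took part in the choice of Nampt. Nothing is therefore read from these shares.

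The cHF+ROSI mice, whose difference chose the gene, exceeded the cHF mice by 0.31 with probe 1 (SE 0.077; 95% confidence interval 0.15 to 0.47; 1.24-fold). The cHF+ROSI mouse was the higher one on all 8 slides, by 0.074 to 0.65, and 1.5% of all probes had one sign on all slides. Because the difference chose the gene, nothing is read from that share. Probe 2 gave 0.17 (SE 0.061), higher on 6 of 8 slides. On slides 4 to 8 its cHF mice (-0.35 to -0.20) lay below all cHF+ROSI mice (-0.10 to 0.11). The groups did not overlap there in 1.58% of all probes, and nothing is read from that share either. The cHF+F mice of those slides (-0.22 to 0.040) overlapped the cHF mice with probe 2. With probe 1 the smallest differences were those on the dimmer slides, 0.074 on slide 3, 0.20 on slide 2 and 0.21 on slide 1. Probe 2 differed there by -0.060 on slide 3, -0.066 on slide 2 and 0.089 on slide 1. It was dim on the cHF arrays of these slides, with Cy5 signals of 79.5, 156 and 201 in the same order. On slide 3 its Cy3 signal was 76, while a probe of Nnt too dim to be compared read 63 in Cy5 and 68 in Cy3. These values of probe 2 are therefore not read as an absence of a difference.

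Set against the same cHF arrays, the mean of Nampt was also higher in the cHF+F mice. The difference with probe 1 was 0.25 (SE 0.077; 95% confidence interval 0.094 to 0.41; 1.19-fold), positive on 7 of 8 slides and -0.12 on slide 3. It had a limma unadjusted p of 0.00303 but did not pass the correction (limma adjusted p 0.434, or 0.117 when the slide was a block). Over the alternatives and left-out mice the lowest adjusted p was 0.117. On slide 3 the Cy5 signal of probe 1 was 221 on the dim array of the cHF mouse, against 2255 on that of the cHF+F mouse. Probe 2 differed by 0.10 (95% confidence interval -0.023 to 0.23; limma adjusted p 0.826), also positive on 7 of 8 slides. Both probes correlated at 0.827 over the 24 arrays, on which they share the mouse and the slide.

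The supplemented groups did not differ detectably from each other in Nampt. The cHF+F minus cHF+ROSI difference was -0.061 with probe 1 (95% confidence interval -0.22 to 0.098; limma adjusted p 0.918) and -0.066 with probe 2 (limma adjusted p 0.887), and the sign of probe 1 turned in 3 of 11 alternatives. In order, therefore, the Nampt means ran from cHF over cHF+F to cHF+ROSI and those of Nmrk2 from cHF over cHF+ROSI to cHF+F. No tested comparison between these groups passed the correction for either gene, and the comparisons that chose the genes had no test.

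**Figure D2:**
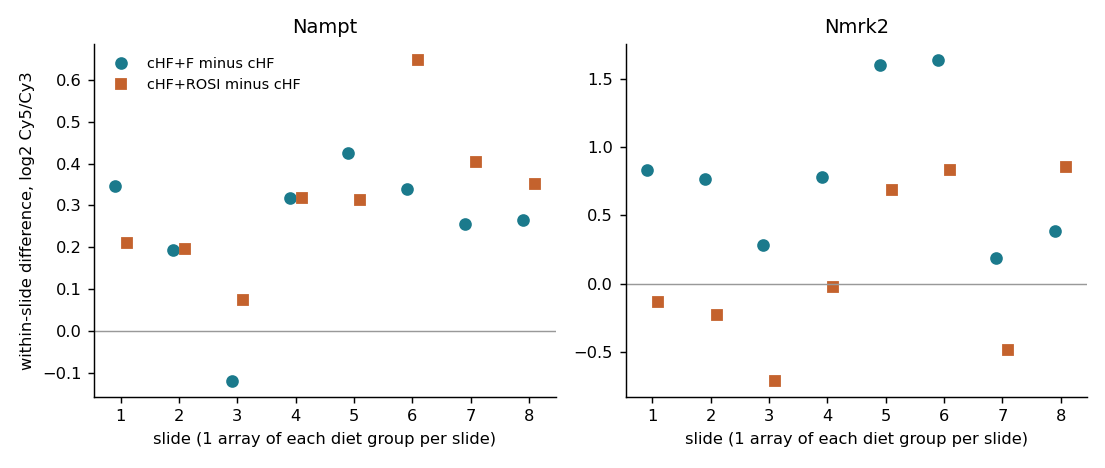
Difference in log2 ratio between mice hybridised on the same slide, for probe 1 of Nampt and for Nmrk2, by slide (circles, cHF+F minus cHF; squares, cHF+ROSI minus cHF). For Nampt all points but one, -0.12 on slide 3, are above 0, whereas for Nmrk2 the 8 circles are above 0 and the squares lie on both sides of it.

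The reference channel was also compared by itself. When Cy3 was compared alone, the pool signal of Nampt probe 1 was 0.21 (SE 0.20) higher on the cHF+F and 0.15 (SE 0.20) higher on the cHF+ROSI arrays than on the cHF arrays, and that of Nmrk2 0.14 (SE 0.17) and 0.18 (SE 0.17) higher. These values were about as large as their SE. In Cy5 alone, without the ratio, Nampt was higher by 0.48 (SE 0.22) and 0.43 (SE 0.22), and Nmrk2 by 1.01 (SE 0.29) and 0.36 (SE 0.29), respectively.

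The enzymes that complete NAD showed no called difference. Nmnat1 has 2 probes that lie close together (mm8, chr4:148312507-148312566 and chr4:148312426-148312485). With probe 1 the cHF mice ranged from -0.17 to 0.0026 (median -0.023), the cHF+F mice from -0.26 to 0.0020 (median -0.078) and the cHF+ROSI mice from -0.48 to 0.15 (median -0.080), so that all groups overlapped. The cHF+F minus cHF difference was -0.038 (95% confidence interval -0.17 to 0.096; limma adjusted p 0.98). With probe 2 it was -0.14 (95% confidence interval -0.31 to 0.024; limma adjusted p 0.824), and the within-slide values ran from -0.33 to -0.019, with the cHF+F mouse lower on all 8 slides. The probes correlated at only 0.421 over the arrays. Relative to the cHF mice, the cHF+ROSI mice differed by -0.049 and -0.073 (limma adjusted p 0.996 for both). Nmnat3 (mm8, chr9:98220659-98220718) had means (SD, n = 8) of -0.029 ± 0.11 for cHF, -0.063 ± 0.13 for cHF+F and -0.076 ± 0.17 for cHF+ROSI. Its differences from the cHF mice were -0.034 (95% confidence interval -0.18 to 0.11) and -0.047 (-0.19 to 0.098), with limma adjusted p of 0.984 and 0.996.

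The NAD-dependent deacylases Sirt1 and Sirt3 had negative differences from the cHF mice in both supplemented groups, none of which passed the test. For Sirt1 the cHF mice ranged from -0.086 to 0.39 (median 0.16) with probe 1 (mm8, chr10:62732365-62732424), the cHF+F mice from -0.19 to 0.15 (median 0.029) and the cHF+ROSI mice from 0.0013 to 0.22 (median 0.046). The cHF+F minus cHF difference was -0.12 (95% confidence interval -0.26 to 0.0055; limma adjusted p 0.752), negative on 7 of 8 slides. Probe 2, at chr10:62714859-62714918 and only 5.25 times as bright as its background, gave -0.074 (limma adjusted p 0.938). With rosiglitazone the Sirt1 probes gave -0.059 and -0.013 (limma adjusted p 0.996 and 0.998). Sirt3, the mitochondrial deacetylase (mm8, chr7:140715026-140715085), ranged from -0.11 to 0.37 (median 0.16) in the cHF, from -0.16 to 0.33 (median 0.073) in the cHF+F and from -0.30 to 0.34 (median 0.036) in the cHF+ROSI mice. Its differences from the cHF mice were -0.099 (95% confidence interval -0.28 to 0.079; limma adjusted p 0.928) and -0.12 (-0.30 to 0.055; limma adjusted p 0.996), the latter negative on 7 of 8 slides.

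Nnt, the transhydrogenase that is defective in the related substrain C57BL/6J, was measured by 4 probes on chromosome 13 of mm8. Probes 1 to 3, at chr13:120454595-120454654, chr13:120455174-120455233 and chr13:120454888-120454946, were well above background on all 24 arrays in both channels. Probe 4, at chr13:120512845-120512903, was well above background on 1 array in Cy5 and on 0 in Cy3, and was not compared. The mice here were C57BL/6N. With probe 1 the lowest, median and highest values were -0.26, -0.055 and 0.40 in the cHF mice, -0.37, -0.10 and 0.27 in the cHF+F mice, and -0.62, 0.040 and 0.24 in the cHF+ROSI mice. All groups overlapped. Over the 3 probes the cHF+F minus cHF difference was -0.097, -0.024 and -0.033, and the cHF+ROSI minus cHF difference -0.039, 0.075 and -0.018, with limma adjusted p of 0.957 or higher. The probes correlated with each other at 0.574 to 0.820 over the arrays.

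**Figure D3:**
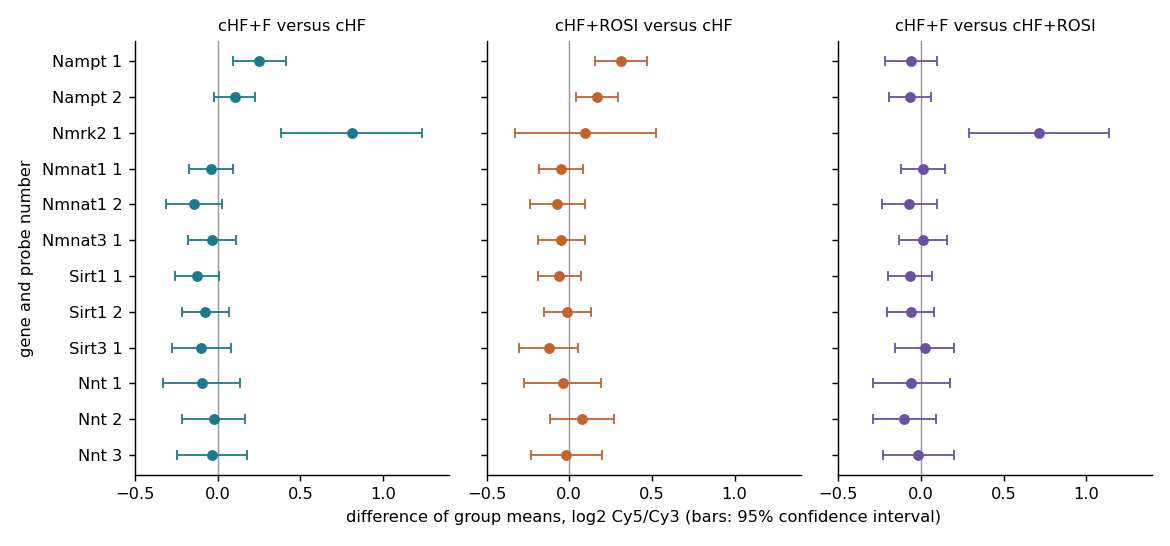
Difference of group means in log2 ratio, with 95% confidence intervals from limma, for the 12 compared probes in the 3 comparisons (n = 8 mice per group). In cHF+F versus cHF, Nmrk2 stands at 0.81 and Nampt probe 1 at 0.25, and the probes of Nmnat1, Nmnat3, Sirt1, Sirt3 and Nnt lie between -0.14 and -0.024.

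Counted together, 0 of the 11 member probes with a test passed an adjusted p of 0.05 between the cHF+F and the cHF mice, 0 of 10 for cHF+ROSI against cHF, and 0 of 12 for cHF+F against cHF+ROSI. The corresponding share of all 15958 probes was 0% in each comparison. At a limma unadjusted p under 0.05 the member probes numbered 1 (Nampt probe 1), 0 and 1 (Nmrk2), against 6.86%, 4.7% and 6.67% of all probes. Both probes share arrays with the comparison that chose their gene, those of cHF for Nampt and of cHF+F for Nmrk2. Nothing is therefore read from these numbers. No member probe separated 2 groups without overlap, which 0.0689%, 0.0188% and 0.0376% of probes did. The median difference over all probes was 0.00063, -0.0086 and 0.0084. The member probes were higher in 3 of 12, 4 of 12 and 4 of 12 cases, against 50.4%, 45.3% and 54.2% of all probes. One sign on all 8 slides was met by 2 (Nmrk2 and Nmnat1 probe 2), 1 (Nampt probe 1) and 0 member probes, against 3.72%, 1.5% and 2.11% of all probes. Nmrk2 in the first and Nampt in the second of these counts chose the genes, and nothing is read from them. For at least 7 slides these background shares were 16.1%, 9.98% and 11.5%, and for at least 6 slides 40.9%, 33.4% and 36.2%.

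Beyond the members, 5 lists of NAD genes were examined, with 1 probe per gene. They comprise 65 genes, of which 64 were on the array and 43 were bright enough. Counting only genes with a test, which leaves out Nmrk2 in cHF+F versus cHF and Nampt in cHF+ROSI versus cHF, 0 of 42, 0 of 42 and 0 of 43 genes were called in the 3 comparisons. Over all 43 genes, the chosen ones included, the median difference from cHF was -0.038 for cHF+F and -0.032 for cHF+ROSI. Of the same 43 genes, 16, Nmrk2 and Nampt among them, were higher in the cHF+F mice and 27 lower, against 50.4% of all probes higher. At a limma unadjusted p under 0.05 there were 1 higher gene, Nampt, and 7 lower ones among the 42. For all probes these shares were 2.85% higher and 4% lower. In the cHF+ROSI mice they were 0 higher and 4 lower of 42, against 1.69% and 3.01% of probes. Between cHF+F and cHF+ROSI there were 1 higher, Nmrk2, and 0 lower, against 4.02% and 2.65%. The lists were chosen with earlier results of these data known, and Nampt and Nmrk2 share arrays here with the comparisons that chose them. These counts are therefore descriptions only.

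Among the genes of NAD synthesis, where 9 of 17 were compared, Naprt and Nadsyn1 of the nicotinic acid route had negative differences that did not pass the correction. Nadsyn1 had 2 kept probes, of which only the brighter is given. Naprt, which turns nicotinic acid into its mononucleotide, had means (SD, n = 8) of 0.051 ± 0.12 for cHF, -0.14 ± 0.10 for cHF+F and -0.023 ± 0.11 for cHF+ROSI. Its cHF+F minus cHF difference was -0.19 (SE 0.060; limma adjusted p 0.47), negative on all 8 slides. Nadsyn1, which adds the amide group in the last step of that route, differed by -0.15 in the cHF+F (limma adjusted p 0.485; lower on 8 of 8 slides) and by -0.11 in the cHF+ROSI mice (limma adjusted p 0.996; lower on 7 of 8 slides). Nmrk1, the widely expressed relative of Nmrk2, differed by 0.085 and 0.049, and Qprt, which feeds the route from tryptophan, by -0.011 and 0.041. Nmnat2 and 7 genes of the tryptophan route were too dim to be compared.

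**Figure D4:**
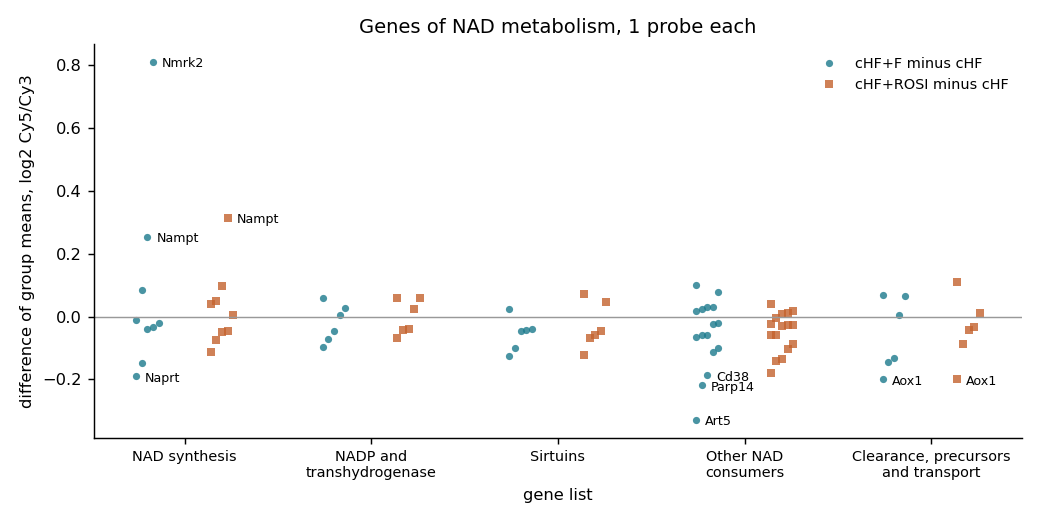
Difference of group means in log2 ratio for the 43 compared genes of 5 lists of NAD metabolism, 1 point per gene (circles, cHF+F minus cHF; squares, cHF+ROSI minus cHF). Nmrk2 (0.81) and Nampt (0.25 and 0.31) stand above the others, which lie between -0.33 and 0.11.

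The consumers of NAD were represented by 16 of 21 genes, with 10 lower and 6 higher in the cHF+F mice. Parp14, a mono-ADP-ribosyltransferase, differed by -0.22 in the cHF+F (limma adjusted p 0.47) and by -0.18 in the cHF+ROSI mice (limma adjusted p 0.996). Art5, another ADP-ribosyltransferase of muscle, differed by -0.33 and Cd38, the main NAD glycohydrolase of the cell surface, by -0.19 in the cHF+F mice (limma adjusted p 0.632 and 0.664). Parp1, the DNA damage sensor, differed by 0.079 and -0.025. Parp4 differed by -0.14 with rosiglitazone (limma adjusted p 0.996). In the list of clearance, precursors and transport, Nnmt, which methylates nicotinamide, differed by 0.069 and 0.011 with a large spread (SD 0.50 in the cHF mice), and Aox1, which oxidises the methylated product, by -0.20 in both groups (limma adjusted p 0.611 and 0.996). Enpp1, a nucleotide pyrophosphatase, differed by -0.14 in the cHF+F mice (limma adjusted p 0.641). Nadk, which makes NADP from NAD, differed by 0.0037 and 0.024. Of 6 sirtuins compared, 5 had a negative difference with cHF+F and 4 with cHF+ROSI, the most negative being -0.12 in both.

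Lists of other genes were set beside these values. For markers of slow fibres, where 6 of 7 genes were lower in the cHF+F mice, the mean log2 ratio of the list ran from -0.33 to 0.74 for cHF, from -1.15 to 0.44 for cHF+F and from -1.28 to 0.64 for cHF+ROSI. Tnni1 differed by -0.81 (limma adjusted p 0.554), Tnnc1 by -0.70 (limma adjusted p 0.65) and Myh7 by -0.80 (limma adjusted p 0.706). For liver markers the list mean ranged from -2.07 to -0.24, from -1.38 to 0.71 and from -2.17 to 1.26 in the same order, and 4 of its 9 genes, Alb among them, were well above background on all arrays. Macrophage markers, with all 7 genes lower in both groups, ranged from -0.20 to 0.30, from -0.63 to 0.16 and from -0.25 to 0.27, and adipocyte markers from -0.98 to 0.70, from -1.31 to 1.02 and from -0.87 to 0.33. With rosiglitazone Mup1 differed by 1.51, Apoa2 by 0.69 and Hp by -0.76 (limma adjusted p 0.996 for each), and in the cHF+F mice Cd14 differed by -0.18 and Csf1r by -0.22 (limma adjusted p 0.646 and 0.711). Each marker of these lists was well above background on at least 1 array. For the muscle fibre list, whose 6 genes had 5 positive differences in the cHF+F and 6 negative ones in the cHF+ROSI mice (none called), the list mean ran from -0.32 to 0.68 for cHF, from -0.059 to 0.62 for cHF+F and from -0.78 to 0.61 for cHF+ROSI.

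The list means were also set against both genes over the 24 mice, in 18 relations. Nampt probe 1 was lower in mice with a higher muscle fibre mean, with Pearson's r = -0.505 (permutation p 0.0115, adjusted 0.207) and Spearman's rho = -0.632 (permutation p 0.00118, adjusted 0.0212), the only relation of the 18 to pass the correction by either measure. Leaving out the 2 mice farthest from the Nampt median gave r = -0.469. Within groups r was -0.933 for cHF, -0.404 for cHF+F and -0.543 for cHF+ROSI, and with group and slide means removed it was -0.240. The permutations took no account of slide or diet, so the p-values do not set the part of the slides or diets aside. They also include the cHF and cHF+ROSI values of Nampt that chose the gene. Nothing is therefore read from the relation that passed. Nmrk2 against the slow fibre mean gave r = -0.413 (permutation p 0.0452, adjusted 0.407) and rho = -0.429 (permutation p 0.0375, adjusted 0.272), with r = -0.182 once the 2 mice farthest from the Nmrk2 median were left out. Within groups r was 0.088 for cHF, -0.075 for cHF+F and -0.720 for cHF+ROSI, so only the cHF+ROSI mice showed it. The values over all mice include the cHF and cHF+F values that chose Nmrk2. The part of these tissues or fibres in the differences of Nampt and Nmrk2 was not tested.

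Nampt is also known as a gene that follows the body clock, and all animals were killed in the morning. Of 10 clock genes compared, 0 were called. Dbp differed by 0.26 in the cHF+F and by 0.57 in the cHF+ROSI mice (limma adjusted p 0.95 and 0.996), and cHF+F differed from cHF+ROSI by -0.26 in Per2 and by 0.16 in Clock (limma adjusted p 0.635 and 0.699). Of 9 targets of the stress factor ATF4, Trib3 differed by 0.61 in the cHF+F mice (limma adjusted p 0.388) and Ddit3 by 0.23 in the cHF+ROSI mice (limma adjusted p 0.996). Directly between cHF+F and cHF+ROSI, Ddit3 differed by -0.24 and Trib3 by 0.45 (limma adjusted p 0.589 and 0.661). Chac1 of the same list, named after its values were seen, differed by -0.79 in the cHF+F mice (limma adjusted p 0.807). Nmrk2 was formerly described as a muscle protein that binds an integrin. Of 7 genes of the integrin complex Dag1 differed by 0.24 in the cHF+F mice (limma adjusted p 0.605), higher on 8 of 8 slides. All 8 differences of the same sign were met in 3.72% of all probes. Dag1 was named for its small unadjusted p, so nothing is read from its slide count. In the list of denervation, damage and regeneration, Csrp3 and Ankrd1 differed by -0.51 and -0.46 in the cHF+F mice (limma adjusted p 0.57 and 0.668).

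Whether the members varied together was examined over the 24 mice, in 21 pairs, and 0 pairs passed the Benjamini-Hochberg correction. Between Nampt probe 1 and Nmrk2 Pearson's r was 0.385 (permutation p 0.0634, adjusted 0.329) and Spearman's rho 0.230 (permutation p 0.278, adjusted 0.638). With the 2 mice farthest from the Nampt median left out, r was 0.312. Within groups r was 0.372 for cHF, 0.655 for cHF+F and -0.184 for cHF+ROSI, and after group and slide means had been removed it was 0.504. The strongest pair was Nampt with Sirt1, at r = -0.520 (permutation p 0.00895, adjusted 0.168) and rho = -0.458 (permutation p 0.0253, adjusted 0.265), falling to -0.372 without the 2 farthest mice. With group and slide means removed this value was -0.093. Nampt and Nmnat3 gave r = 0.653 with group means removed and -0.412 with slide means removed as well.

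**Figure D5:**
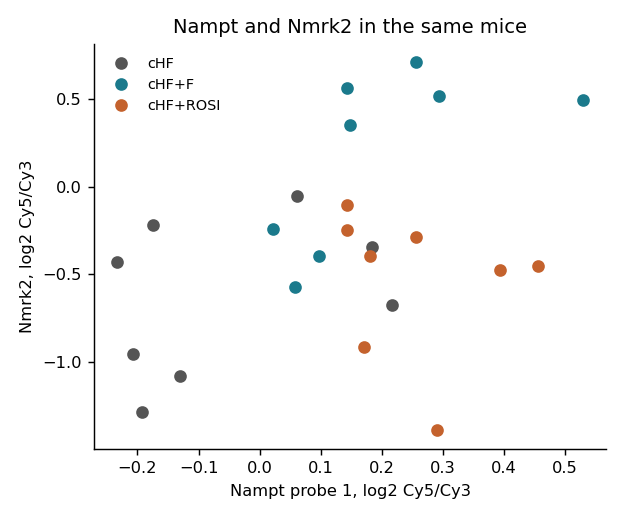
Log2 ratio of Nmrk2 against that of Nampt probe 1 in the same 24 mice, coloured by diet group. The 5 cHF+F mice with Nmrk2 of 0.35 or higher stand above all other mice, and 5 cHF mice have the only Nampt values below 0 (r = 0.385 over all mice).

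The genes whose log2 ratio was most like that of each leading member were found among 10698 other genes, as a description over 24 arrays that share slides. For Nampt these were Ncoa4 (r = 0.817), BC003965 (0.805), Bag5 (0.802), Hsp90b1 (0.780) and Myf6 (0.780), and 0.374% of genes exceeded 0.7. With group and slide means removed the values were 0.668, 0.818, 0.583, 0.490 and 0.130. For Nmrk2 they were Prxl2b (r = 0.733), Pgk1 (0.728), Rxrg (0.681), C3 (0.666) and Ak1 (0.659), and 0.0187% of genes exceeded 0.7. With the same means removed these were 0.607, 0.557, 0.485, 0.580 and 0.479.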

How the data were processed

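Gastrocnemius RNA of 24 mice (8 per diet group, as labelled) was measured on 24 two-colour arrays. Per the file headers, the deposited scanner files hold spot and local background intensity on a linear scale, quantified by the authors with Feature Extraction (version 10.5.1.1 in the headers, 10.5.5.1 in the submitters' processing notes). The authors also deposited a table of normalized log2 values; 16 of its columns, named for the cHF and cHF+F groups, served as an alternative, and 8 columns named for a combined diet that matches no group were not used.

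Median spot signals were background-corrected (normexp, offset 50), Cy5/Cy3 ratios were normalized within arrays by loess (span 0.3), flagged spots were left out, and spots of a probe were averaged. Of 41174 probes, 15958 had a mean signal of at least 2 times background in both channels and at least 4 unflagged arrays per group. For genes with several probes the brightest stood for the gene. Symbols were taken through accessions in a RefSeq table (GRCm38.p6), otherwise from the files. Groups were compared with limma 3.58.1 in R 4.3.3 (with the package data.table, version 1.17.8), in 1 two-sided model without a block, with Benjamini-Hochberg adjustment over all kept probes and a threshold of 0.05. The scripts were tested on simulated data. Figures were drawn with matplotlib 3.10.9. Probe coordinates are on mm8, as in the files, and exons were not looked up.

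Members and lists were chosen with earlier results of these data known. All members were named, with 8 fixed further genes of NAD metabolism, up to 3 genes per list with the smallest unadjusted p under 0.05 in any comparison, and the 5 genes most like Nampt and Nmrk2. Qprt was named after its values were seen. Correlations were tested with 100000 permutations over all mice, two-sided, without regard to slide or diet. Per the labels each array holds an individual sample, and p-values measure the spread between these. Mice shared cages, as the paper states, and the tests took no account of cage. No depth exists for arrays, and the number of arrays limits the precision.

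Samples with the same replicate number shared a slide, as the file headers show. Deviations from the group means of same-slide arrays correlated at -0.11 to 0.64 (median 0.25), 18 of 24 pairs over 0.1, and those of arrays on different slides at a median of -0.053. Alternatives were background correction, signal column, Cy5 alone, loess span, median centring, probe filters, the slide as a block, array weights, the methods' t-test, the authors' table and each left-out array; slides 4 to 8 alone, and leaving out the cHF+ROSI mice 3 and 4, were added after seeing the data.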

Additional observations from a re-analysis of the deposited data

Results flagged for a closer look

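One value stood far from the rest of its group. In the cHF+ROSI mouse with replicate number 8, Nnt probe 1 had a log2 ratio of -0.62, while the next lowest mouse of the group was at -0.15, a gap of 0.549 of the group's whole range. The same mouse was also the lowest of its group with Nnt probe 2 (-0.43) and probe 3 (-0.48). Of 36 groups of member values examined, 1 met this criterion, and chance alone picks out about 1 in 20.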

How the results depend on the processing

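Of 1269 values of the member differences under other settings, 1260 stayed within 1 SD of the replicates and 9 did not, and 64 changed sign, none of them for Nmrk2 in any comparison or for Nampt against the cHF mice. In Cy5 alone Nampt was at 0.48 (probe 1) and 0.23 (probe 2) for cHF+F minus cHF and probe 2 at 0.38 for cHF+ROSI minus cHF. In the same setting, Nmnat1 probe 1 was at -0.25 (cHF+ROSI minus cHF) and 0.16 (cHF+F minus cHF+ROSI), Nmnat3 at 0.13 (cHF+ROSI minus cHF) and Sirt1 probe 2 at 0.077 (cHF+F minus cHF+ROSI). With processed signals, Sirt1 probe 2 was at -0.27 (cHF+F minus cHF) and -0.23 (cHF+ROSI minus cHF). The cause was not tested.

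Leaving out 1 mouse, the cHF+F minus cHF difference ranged from 0.72 to 0.92 for Nmrk2 and from 0.20 to 0.29 for Nampt probe 1, that of Nampt for cHF+ROSI minus cHF from 0.29 to 0.35, and that of Nmrk2 for cHF+F minus cHF+ROSI from 0.59 to 0.82. No gene of the NAD lists with a test was called in any alternative run. Nmrk2 in cHF+F versus cHF and Nampt in cHF+ROSI versus cHF had no test and were not counted. Over all probes, cHF+F versus cHF had 0 calls and 3 without the filter, 6 with the replicate block and 12 with array weights, and left-out mice gave 0 to 2 (1 without cHF mouse 8, 2 without cHF+F mouse 8). For cHF+F versus cHF+ROSI left-out mice gave 0 to 2 (1 without cHF+F mouse 7, 2 without cHF+ROSI mouse 7). The methods' t-test called 0 probes after Benjamini-Hochberg adjustment in each comparison. Without adjustment it passed 1265 probes (cHF+F against cHF), 755 (cHF+ROSI against cHF) and 938 (between the supplemented groups). The replicate block, that is the slide, changed no call of a member with a test. Dim probes, such as Nnt probe 4, set the limit of what these arrays can show.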
